A study of Mus musculus with 8 samples.

Results

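TREM2 is a lipid-sensing receptor that brain macrophages, chiefly microglia, carry on their surface. It has no signalling tail of its own and passes its signal through the adaptor TYROBP (DAP12), whose tyrosine motif is phosphorylated by Src-family kinases such as LYN and then binds the kinase SYK. SYK acts through phospholipase C gamma 2 (Plcg2), which releases calcium, and through the guanine nucleotide exchange factor Vav1, which acts on the actin cytoskeleton, while the lipid phosphatase SHIP1 (Inpp5d) dampens the pathway. The genes described here are these 7 (Trem2, Tyrobp, Syk, Plcg2, Inpp5d, Vav1 and Lyn), found by exact symbol among the 43346 genes of the table, and all 7 passed the filter on low counts with the 20987 genes that were tested.

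The RNA came from cortex and hippocampus of mice aged 1.5 months that carried either green fluorescent protein (GFP) or GFP joined to 100 glycine-arginine repeats (GFP-GR100), a dipeptide repeat protein of the kind made from the C9orf72 repeat expansion. The repeat sequence was placed in frame with EGFP in an adeno-associated virus vector plasmid, per the labels, which name neither the cells that expressed it nor the vector of the GFP group. Each group held 4 animals, 2 females (libraries 1 and 2) and 2 males (libraries 3 and 4), and each animal gave 1 library. The tissue weighed between 111.4 and 126.6 mg in GFP mice and between 71.9 and 85.1 mg in GFP-GR100 mice.

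The libraries held 65880460 to 89113010 counts, which makes 3 counts worth 0.0328 to 0.0495 CPM, the count scaled by the TMM method to a common library size of 1000000. The members had between 241 and 3394 counts in each library. The share of counts at 3 loci that take up ribosomal RNA reads (Yam1, AY036118 and Lars2) was 6.74% to 11.4% in GFP females and 8.77% to 9.83% in GFP-GR100 males, against 2.76% to 3.80% in the other 4 libraries. This share crosses sex and group. In females it was higher in the GFP libraries, and in males in the GFP-GR100 libraries. The fold changes were also computed with it as a covariate. They were computed within each sex too, where a group difference cannot be told apart from the share.

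Upstream sequence is shown for the 3 members whose promoter held the same short motif, to show where it lies in each. They were picked by that motif, and their log2 fold changes were unlike, at 1.42 for Trem2, 1.02 for Vav1 and 0.59 for Inpp5d, while Plcg2, without a match, had 0.72. RefSeq promoters of build GRCm38.p6 (250 bases before to 50 after the start site) matched 5 of the 7 members, Trem2, Syk (with 2 promoters), Plcg2, Inpp5d and Vav1, with Lyn and Tyrobp unmatched. The letters GAGGAAG, a core bound by the myeloid factor PU.1, were found on either strand in those of Trem2, Inpp5d and Vav1, and in 13.6% of all 32851 promoters of the same length. The first base of the match lay 41 bases upstream of the start site in Trem2, 20 in Inpp5d and 11 in Vav1. Where the match lies in other promoters was not examined. Capitals mark the match in the 120 bases that end just before the start site, on the plus strand, from chr17:48346281-48346400 (Trem2), chr1:87620192-87620311 (Inpp5d) and chr17:57278980-57279099 (Vav1).
Trem2: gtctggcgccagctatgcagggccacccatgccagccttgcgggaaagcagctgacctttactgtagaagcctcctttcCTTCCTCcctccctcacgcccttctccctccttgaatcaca
Inpp5d: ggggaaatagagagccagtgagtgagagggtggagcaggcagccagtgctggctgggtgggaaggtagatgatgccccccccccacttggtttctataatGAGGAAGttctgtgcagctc
Vav1: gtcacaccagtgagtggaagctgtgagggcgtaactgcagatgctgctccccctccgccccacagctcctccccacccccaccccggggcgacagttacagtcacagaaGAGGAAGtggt
The match in Trem2 reads on the minus strand, as CTTCCTC on the strand shown. The interferon-type letters GAAANNGAA and TTCNNNGAA, present in 8.56% and 8.3% of all promoters, were not in these windows for any of the 5 members, and no match overlapped another. A match in the letters describes the sequence only.

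Of the 7 members, 6 were higher in GFP-GR100 than in GFP mice and none was lower (0 also at an unadjusted p under 0.05 in edgeR, and 0 by DESeq2, limma-voom and limma-trend), with a median log2 fold change of 0.72 over the 7. Over all tested genes 2.19% were higher and 0.324% lower at an adjusted p under 0.05 (edgeR quasi-likelihood test with Benjamini-Hochberg adjustment over all tested genes), and the median log2 fold change was -0.024. The receptor had the largest change, followed by its adaptor and Vav1. The lipid phosphatase Inpp5d, the phospholipase Plcg2 and the kinase Lyn rose by less, and the kinase Syk did not pass the test. The 4 GFP-GR100 values lay above all 4 GFP values for the same 6 genes, a pattern found in 5.03% of tested genes.

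**Figure D1:**
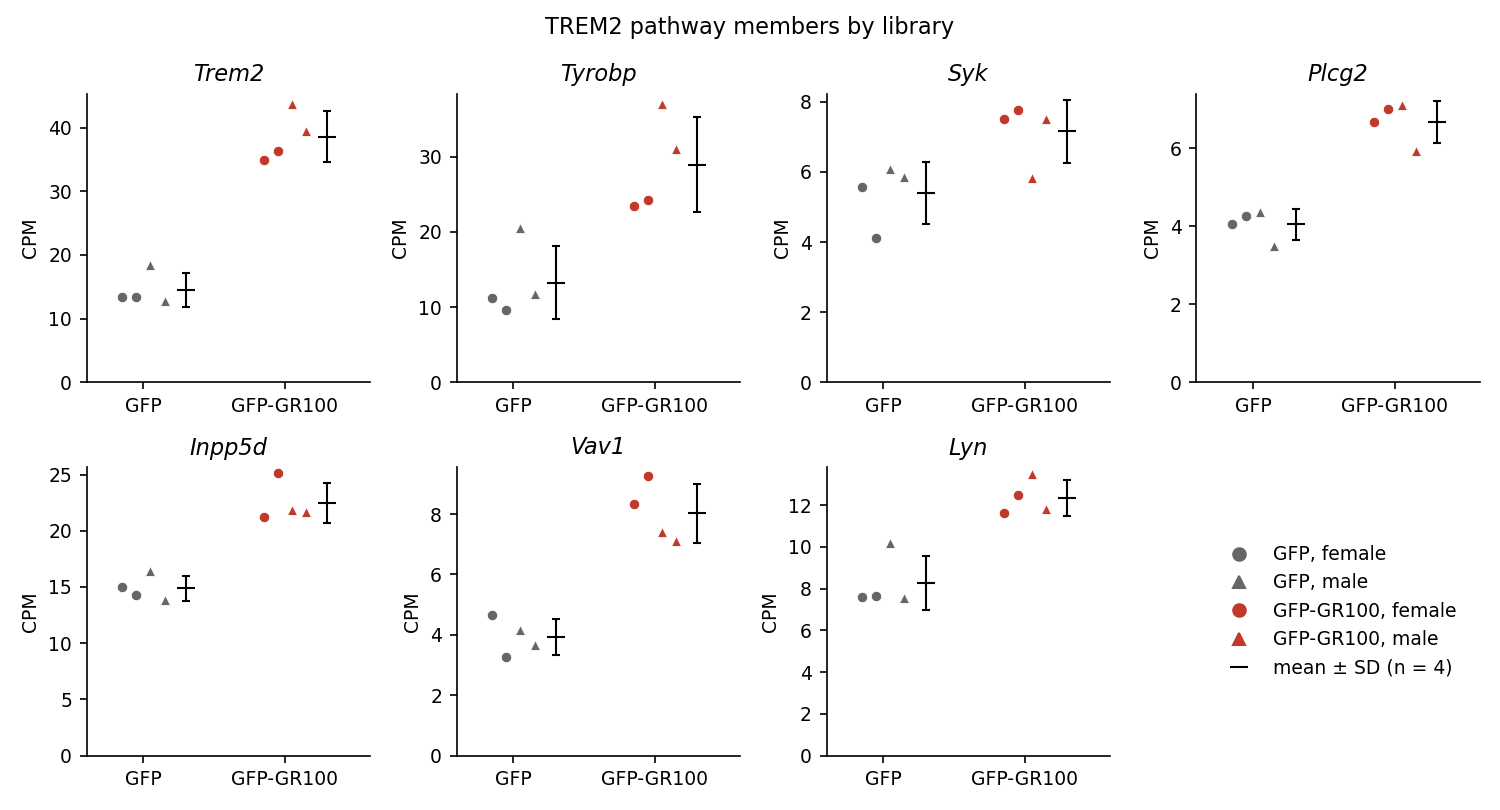
CPM of each of the 7 members (vertical axis, TMM-scaled counts) in the 4 GFP and 4 GFP-GR100 libraries, circles for females and triangles for males, with the mean and SD of each group (n = 4). The groups are apart for 6 genes and overlap for Syk, where GFP-GR100 3 at 5.84 CPM lies below GFP 3 and GFP 4.

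Trem2, the receptor (ENSMUSG00000023992, mm10 chromosome 17, 48346401 to 48354147, plus strand), had 13.4, 13.4, 18.5 and 12.7 CPM in GFP 1 to 4, against 34.9, 36.3, 43.8 and 39.5 CPM in GFP-GR100 1 to 4. The lowest GFP-GR100 library was well above the highest GFP library, GFP 3. The means were 14.5 ± 2.69 and 38.7 ± 3.95 CPM (SD, n = 4 each), a log2 fold change of 1.42 (SE 0.11, edgeR adjusted p = 2.48e-05), or 2.67-fold. Trem2 stood at position 11 of all tested genes ordered by p.

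Tyrobp, the adaptor (ENSMUSG00000030579, chromosome 7, 30413788 to 30417577, plus strand), had 11.2, 9.66, 20.5 and 11.7 CPM in GFP 1 to 4, against 23.5, 24.3, 37.0 and 31.1 CPM in GFP-GR100 1 to 4. The groups were apart, but GFP 3 came close to the GFP-GR100 females, and males were the higher libraries within GFP-GR100. The means were 13.3 ± 4.90 and 29.0 ± 6.35 CPM (SD, n = 4 each), a log2 fold change of 1.14 (SE 0.15, edgeR adjusted p = 0.00187).

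Among the kinases, Lyn, the Src-family kinase (ENSMUSG00000042228, chromosome 4, 3678115 to 3813122, plus strand), had 7.62, 7.66, 10.2 and 7.56 CPM in GFP 1 to 4, against 11.6, 12.5, 13.5 and 11.8 CPM in GFP-GR100 1 to 4. GFP 3 again stood above the other GFP libraries, and all GFP-GR100 libraries were higher still. The log2 fold change was 0.58 (SE 0.12, edgeR adjusted p = 0.0162). This call depended on single libraries. Leaving out GFP 1, 2 or 4 gave adjusted p-values of 0.0501, 0.0569 and 0.0540, and leaving out GFP-GR100 2 or 3 gave 0.0720 and 0.0754. The span of Lyn, introns included, overlaps 4 annotated noncoding or pseudogene models on the opposite strand (Gm26857, Gm11805, Gm22781 and 9430025C20Rik), none above 90 counts in a library. Overlap was not sought exon by exon. Since use of strand in counting is not given in the sources used here, reads of any stretch shared with a Lyn exon cannot be assigned with certainty.

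Syk, the kinase that binds the phosphorylated adaptor (ENSMUSG00000021457, chromosome 13, 52583173 to 52648792, plus strand), had 5.56, 4.11, 6.08 and 5.87 CPM in GFP 1 to 4, against 7.51, 7.77, 5.84 and 7.51 CPM in GFP-GR100 1 to 4. The groups overlapped because GFP-GR100 3 sat at the GFP level. The log2 fold change was 0.41 (SE 0.15, edgeR adjusted p = 0.222), and no alternative brought the adjusted p under 0.0749.

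Of the members that act downstream of SYK, both Plcg2 and Vav1 rose. Plcg2 (ENSMUSG00000034330, chromosome 8, 117498291 to 117635140, plus strand) had 4.06, 4.27, 4.37 and 3.50 CPM in GFP 1 to 4, against 6.69, 7.01, 7.12 and 5.93 CPM in GFP-GR100 1 to 4. Both groups were tight and did not overlap, with a log2 fold change of 0.72 (SE 0.13, edgeR adjusted p = 0.00709). Vav1 (ENSMUSG00000034116, chromosome 17, 57279100 to 57328031, plus strand) had 4.65, 3.26, 4.16 and 3.65 CPM in GFP 1 to 4, against 8.34, 9.26, 7.40 and 7.10 CPM in GFP-GR100 1 to 4. Its females were the higher GFP-GR100 libraries, and the log2 fold change was 1.02 (SE 0.14, edgeR adjusted p = 0.00135).

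Inpp5d, which encodes the inhibitory phosphatase SHIP1 (ENSMUSG00000026288, chromosome 1, 87620312 to 87720507, plus strand), had 15, 14.3, 16.4 and 13.8 CPM in GFP 1 to 4, against 21.2, 25.1, 21.8 and 21.7 CPM in GFP-GR100 1 to 4. GFP-GR100 2 was the highest library, and the groups were apart. The log2 fold change was 0.59 (SE 0.09, edgeR adjusted p = 0.00406).

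Within females the log2 fold changes were 1.41 for Trem2, 1.20 for Tyrobp, 1.16 for Vav1, 0.72 for Plcg2, 0.66 for Inpp5d, 0.66 for Lyn and 0.66 for Syk. Within males they were 1.42 for Trem2, 1.08 for Tyrobp, 0.89 for Vav1, 0.73 for Plcg2, 0.52 for Inpp5d, 0.51 for Lyn and 0.16 for Syk. The sexes differed most for Syk, by -0.505 (male minus female), but no member's difference passed the test of the interaction, with edgeR adjusted p-values from 0.365 for Syk to 0.989 for Trem2 and Plcg2. The share of ribosomal RNA reads differed between the groups in opposite directions in females and males. A difference between the sexes therefore cannot be told apart from that share.

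Levels can be set against each other only per length of transcript, and here the gene model matters. In the deposited RPKM (reads scaled to transcript length and library size), Trem2 rose from 2.87 ± 0.608 to 7.99 ± 0.689 and Tyrobp from 23.1 ± 9.20 to 52.3 ± 10.6 (SD, n = 4 each), which puts the mean of the adaptor 8.05-fold above that of its receptor in GFP mice and 6.55-fold above it in GFP-GR100 mice. The deposited Trem2 length of 4946 bases equals the union of all its annotated exons, and that union takes in a retained-intron transcript of 4784 bases. The longest protein-coding Trem2 transcript has 1088 bases. Counts per kilobase of the longest coding transcript, on the same library scale, gave 13 ± 2.76 and 36.3 ± 3.13 for Trem2 against 21.9 ± 8.70 and 49.5 ± 10 for Tyrobp, so that the excess of Tyrobp was 1.68-fold in GFP and 1.36-fold in GFP-GR100 mice. Any reads from the retained intron would still be in the Trem2 counts, and the excess of Tyrobp would then be understated. The choice of length moves levels between genes and leaves each gene's fold change as it is.

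On the same scale of the longest coding transcript, Inpp5d had 2.95 ± 0.279 and 4.65 ± 0.435, Lyn 2.34 ± 0.439 and 3.65 ± 0.225, and Vav1 1.29 ± 0.173 and 2.78 ± 0.383 in GFP and GFP-GR100 mice. Syk had 0.986 ± 0.177 and 1.37 ± 0.189, and Plcg2 0.921 ± 0.0981 and 1.59 ± 0.131. The receptor and adaptor were thus the most abundant of the 7 per kilobase in both groups. Syk and Plcg2 were the least abundant, and in GFP mice their means differed by less than 1 SD.

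The ratio of 2 members within a library does not depend on how libraries are scaled, and it was used to ask whether the receptor moved by the same amount as the other members. On log2 counts, with 0.5 added to each, the Trem2-to-Tyrobp ratio was 0.26, 0.47, -0.15 and 0.11 in GFP 1 to 4, against 0.57, 0.58, 0.24 and 0.35 in GFP-GR100 1 to 4. The groups overlapped, and the difference of 0.26 did not pass an exact permutation test (two-sided, with 70 possible assignments of libraries to groups, p = 0.143, also after adjustment over the 6 ratios, smallest possible p 0.0286). A p of this size does not show that receptor and adaptor changed alike.

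Against both kinases and 2 of the other members the receptor had risen by more. The Trem2-to-Syk ratio ran from 1.11 to 1.70 in GFP and from 2.22 to 2.91 in GFP-GR100 libraries, a difference of 1.02. The Trem2-to-Lyn ratio was the tightest, at 0.82, 0.80, 0.85 and 0.74 in GFP 1 to 4, against 1.59, 1.54, 1.70 and 1.74 in GFP-GR100 1 to 4, a difference of 0.84. The differences were also 0.84 for Inpp5d and 0.70 for Plcg2. For these 4 ratios all GFP-GR100 libraries lay above all GFP libraries, and the exact permutation p of each was 0.0286, or 0.0429 after Benjamini-Hochberg adjustment over the 6. Passing rested on these 4 ratios reaching the smallest possible p together. All 4 hold the same Trem2 counts, so they are not independent of each other. Against Vav1 the difference was 0.39 with overlapping groups (exact permutation p = 0.143, adjusted p = 0.143).

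**Figure D2:**
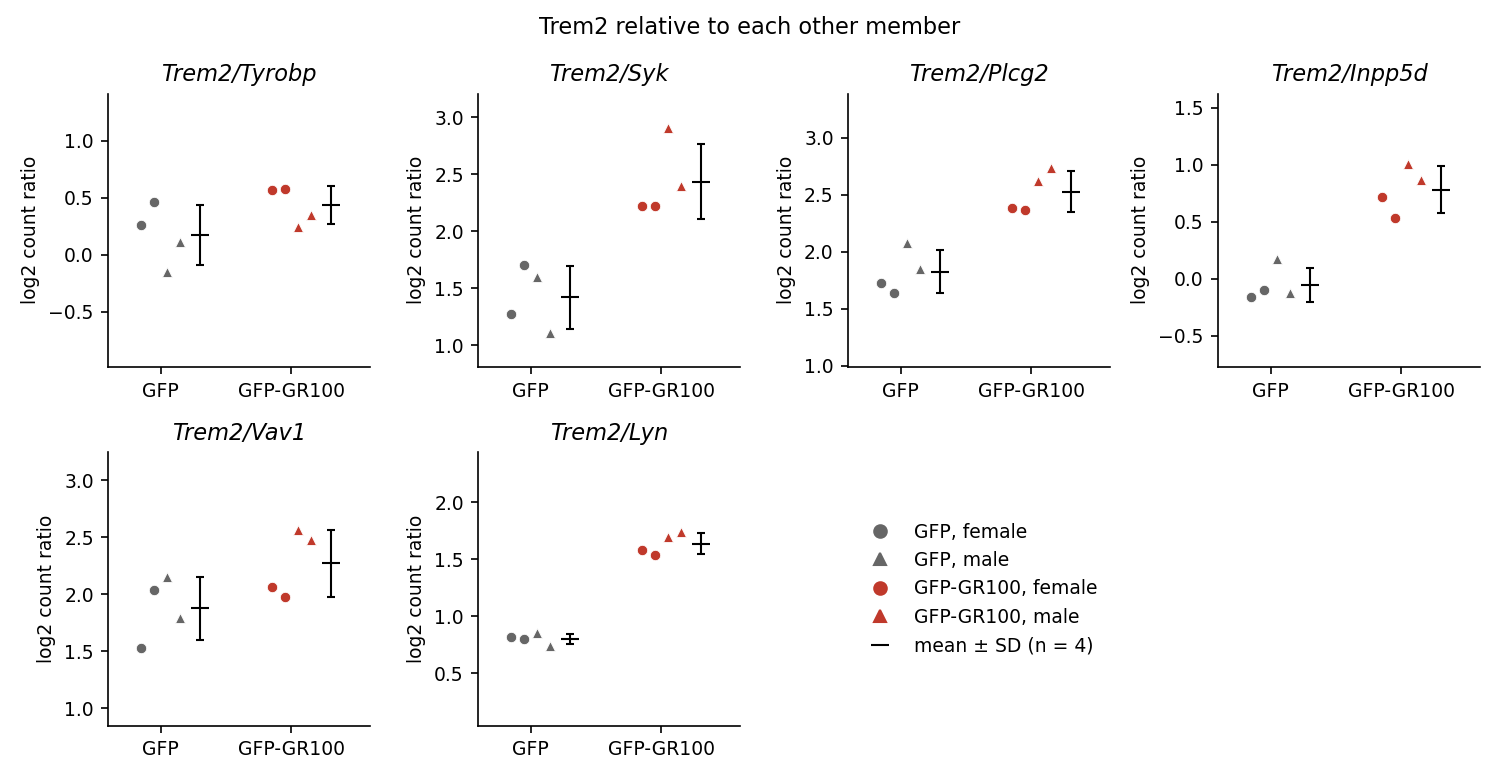
Log2 ratio of Trem2 counts to the counts of each other member (vertical axis, every panel spanning the same number of log2 units) in each GFP and GFP-GR100 library, with mean and SD (n = 4 per group). The groups are apart for Syk, Plcg2, Inpp5d and Lyn, and overlap for Tyrobp and Vav1.

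Several members have a close relative that other cells of the brain also express, and these pairs were compared in the same way (9 ratios). The relatives themselves did not pass the edgeR test: Plcg1 had a log2 fold change of 0.03 (adjusted p = 0.872), Inppl1, which encodes the phosphatase SHIP2, 0.01 (adjusted p = 0.976), Vav2 0.32 (adjusted p = 0.172), Vav3 0.02 (adjusted p = 0.976) and the Src-family kinase Fyn -0.19 (adjusted p = 0.265). Against them the members were higher in GFP-GR100 mice by 0.69 for Plcg2 over Plcg1, 0.59 for Inpp5d over Inppl1, 0.71 for Vav1 over Vav2 and 0.78 for Lyn over Fyn on the log2 scale. All GFP-GR100 libraries lay above all GFP libraries in these 4 ratios. The exact permutation p was 0.0286 for each, the smallest the design allows, and 0.0514 after adjustment over the 9 ratios, which misses the threshold. For Vav1 over Vav3 the difference was 1.03, but GFP-GR100 4 at -0.62 fell among the GFP libraries, which ran from -1.20 to -0.35 (exact permutation p = 0.0571, adjusted p = 0.0857).

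For Syk over Zap70, the related kinase of T cells, the difference was 0.46 (exact permutation p = 0.2, adjusted p = 0.225).

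Tyrobp was compared with 2 other signalling adaptors. Fcer1g, the gamma chain of Fc receptors, rose by 0.97 (SE 0.14, edgeR adjusted p = 0.0022), and the Tyrobp-to-Fcer1g ratio differed by 0.17 with overlapping groups (exact permutation p = 0.143, adjusted p = 0.184). Hcst (DAP10), at 0.281 ± 0.157 and 0.602 ± 0.264 CPM (SD, n = 4 each), did not pass the edgeR test (log2 fold change 1.14, SE 0.40, adjusted p = 0.193). It did pass with no filter on low counts (adjusted p = 0.0214) and without GFP 3 and GFP-GR100 4 (adjusted p = 0.0387). Its ratio with Tyrobp differed by -0.01 (exact permutation p = 0.943), a sign that turned when more than 0.5 was added to the counts.

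Other genes of the pathway were taken from lists of 78 genes, of which 77 were in the table under that symbol and 66 were tested. Of these 66, 18 rose, none fell and 48 did not pass, against 2.19% higher and 0.324% lower over all tested genes. Of the genes with lower values, 2 (Fyn and Ubash3b) had an unadjusted p under 0.05 in edgeR, and DESeq2, limma-voom and limma-trend called 0. The median log2 fold change of the 66 was 0.26. Of the 18, 12 kept an adjusted p under 0.05 in all 17 alternatives of the fit, and Fgr, Btk, Rac2, Pik3cg, Card9 and Cd33 lost it in between 1 and 8 of them.

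Of the 14 other TREM-family receptors and receptors that pair with TYROBP, only 4 had enough counts to be tested, and 3 rose. Treml2, a TREM-family receptor, went from 0.431 ± 0.215 to 2.05 ± 0.510 CPM (SD, n = 4 each; log2 fold change 2.29, SE 0.32, edgeR adjusted p = 0.00173). The C-type lectin receptor Clec5a rose by 0.89 (SE 0.14) and the microglial sialic acid-binding receptor Siglech by 0.62 (SE 0.11). Trem1, Trem3, Treml1 and Treml4 were too low to test, none of them above 0.216 CPM in a library. The 3 that rose were called in all 17 alternatives.

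None of the 5 genes for ligands or sheddases of TREM2 passed in edgeR, and 0 by DESeq2, limma-voom and limma-trend. Without GFP 3 and GFP-GR100 4, 1 of them, Apoe, was called higher (edgeR adjusted p = 0.0387). Apoe, a lipid carrier that binds TREM2, was the 1 with an unadjusted p under 0.05, with 1020 to 1590 CPM in GFP and 1490 to 1590 CPM in GFP-GR100 libraries (log2 fold change 0.30, SE 0.11, edgeR adjusted p = 0.233). The other 4 were the TREM2-binding lipoproteins Clu and Apoa1 and the sheddases Adam10 and Adam17.

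Of the 11 other tyrosine kinases and kinase regulators tested, 3 rose, among them Btk and Fgr, and 1 rose when GFP-GR100 3 was left out. Btk, a Tec-family kinase that acts on PLCG2, rose by 1.09 (SE 0.20, edgeR adjusted p = 0.011), and its call was lost without GFP-GR100 3 (adjusted p = 0.0541). Fgr, a Src-family kinase of myeloid cells, rose by 2.03 (SE 0.42, adjusted p = 0.019) from 0.176 ± 0.106 CPM, and its adjusted p rose to 0.0501 when GFP 1 was left out, to 0.0795 for GFP-GR100 2 and to 0.0745 for GFP-GR100 3.

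Of the 25 scaffolds and effectors, all tested, 7 rose and 18 did not pass, and 4 rose when GFP 4, GFP-GR100 2 or GFP-GR100 3 was left out. Pik3ap1, an adaptor that brings phosphoinositide 3-kinase to receptors, had the smallest p, going from 2.34 ± 0.553 to 5.97 ± 0.801 CPM (SD, n = 4 each; log2 fold change 1.37, SE 0.14, edgeR adjusted p = 0.000233). The Rac activator Dock2 rose by 1.09 (SE 0.14), the scaffold Lcp2 (SLP-76) by 0.92 (SE 0.16) and the membrane scaffold Lat2 by 1.01 (SE 0.18). Pik3cg, Card9 and Rac2 completed the 7. The adjusted p of Pik3cg was 0.0561 to 0.0694 with GFP 4, GFP-GR100 2 or GFP-GR100 3 left out, and that of Card9 was 0.0557 to 0.0773 with GFP 1 or any of the same 3 left out. Rac2 lost its call in 8 of the 17 alternatives, among them the leaving out of every library except GFP 3.

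Of the 19 genes tested from the list of inhibitors, 4 rose. Whether their products inhibit the pathway in these mice was not tested. These were the inhibitory Fc receptor Fcgr2b (log2 fold change 1.24, SE 0.16), the phosphatase Ptpn6 (SHP-1; 1.26, SE 0.18), the inhibitory receptor Cd300a (0.89, SE 0.16) and the sialic acid-binding receptor Cd33 (1.18, SE 0.21), with edgeR adjusted p-values of 0.000905, 0.00249, 0.0076 and 0.0111. The call of Cd33 was lost without GFP-GR100 3 (adjusted p = 0.0508).

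**Figure D3:**
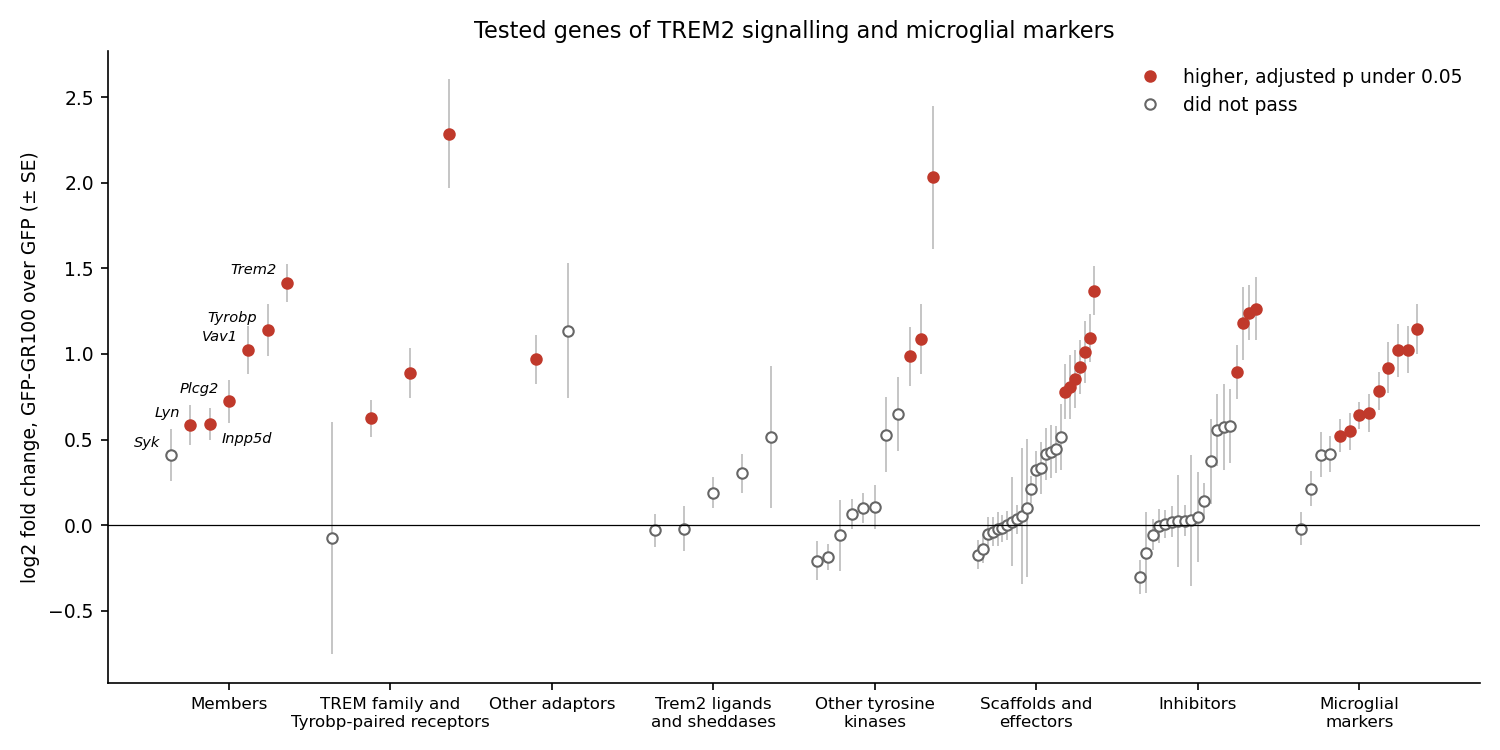
Log2 fold change between the groups (vertical axis, GFP-GR100 over GFP, with SE) for each tested gene of the members, of the 6 other pathway lists and of the microglial markers, ordered by size within a list, with filled points for genes at an edgeR adjusted p under 0.05. All filled points lie above 0, and Trem2 at 1.42 is the highest of the 7 members.

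Microglia are the main cells of the brain that express these genes, and their markers were higher too. Of 13 microglial markers, 9 rose and none fell, with a median log2 fold change of 0.64. Those that rose included the fractalkine receptor Cx3cr1, the complement genes C1qa, C1qb and C1qc, Aif1 (IBA1), the transcription factor Sall1, the growth factor receptor Csf1r and Gpr34. Olfml3 (0.42), Tmem119 (0.41), P2ry12 (0.21) and Fcrls (-0.02) did not pass. The call of Gpr34 was lost without GFP-GR100 3 (adjusted p = 0.0769) and that of C1qb without sex in the model (adjusted p = 0.0536). The markers' summed level ran from 470 to 672 CPM in GFP and from 799 to 902 CPM in GFP-GR100 libraries, so the sums did not overlap. In bulk tissue a difference in the number of cells of a type and a difference in RNA per cell cannot be told apart.

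Each member was therefore also expressed relative to the mean log2 level of the 13 markers in the same library. Trem2 stood at -1.08, -0.99, -1.05 and -1.18 in GFP 1 to 4 against -0.32, -0.34, -0.21 and -0.30 in GFP-GR100 1 to 4, a difference of 0.78 with the groups apart (exact permutation p = 0.0286, adjusted p = 0.2 over the 7 members). The adjusted p misses the threshold. As 0.0286 is the smallest p the design allows, a member alone at it cannot pass over 7, however large its difference. With the middle marker of each library in place of the mean, the Trem2 difference was 1.31 and passed (exact permutation, adjusted p = 0.0333), as did those of the other members except Syk. Passing there rested on most members reaching that smallest p together. The middle marker is the one of middle abundance, so these differences depend on which gene sits there. It was P2ry12 (log2 fold change 0.21) in every GFP-GR100 library, and C1qc, P2ry12 or Fcrls in the GFP libraries. Relative to the mean of the markers, Tyrobp differed by 0.52 (exact permutation p = 0.0571, adjusted p = 0.2) and Vav1 by 0.39 (exact permutation p = 0.0857, adjusted p = 0.2), both with overlapping groups. Plcg2 at 0.08, Inpp5d at -0.05, Lyn at -0.05 and Syk at -0.23 had overlapping groups and exact permutation p-values from 0.229 to 0.743. Under the middle marker the signs of the last 3 turned, at 0.47 for Inpp5d and Lyn and 0.29 for Syk.

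**Figure D4:**
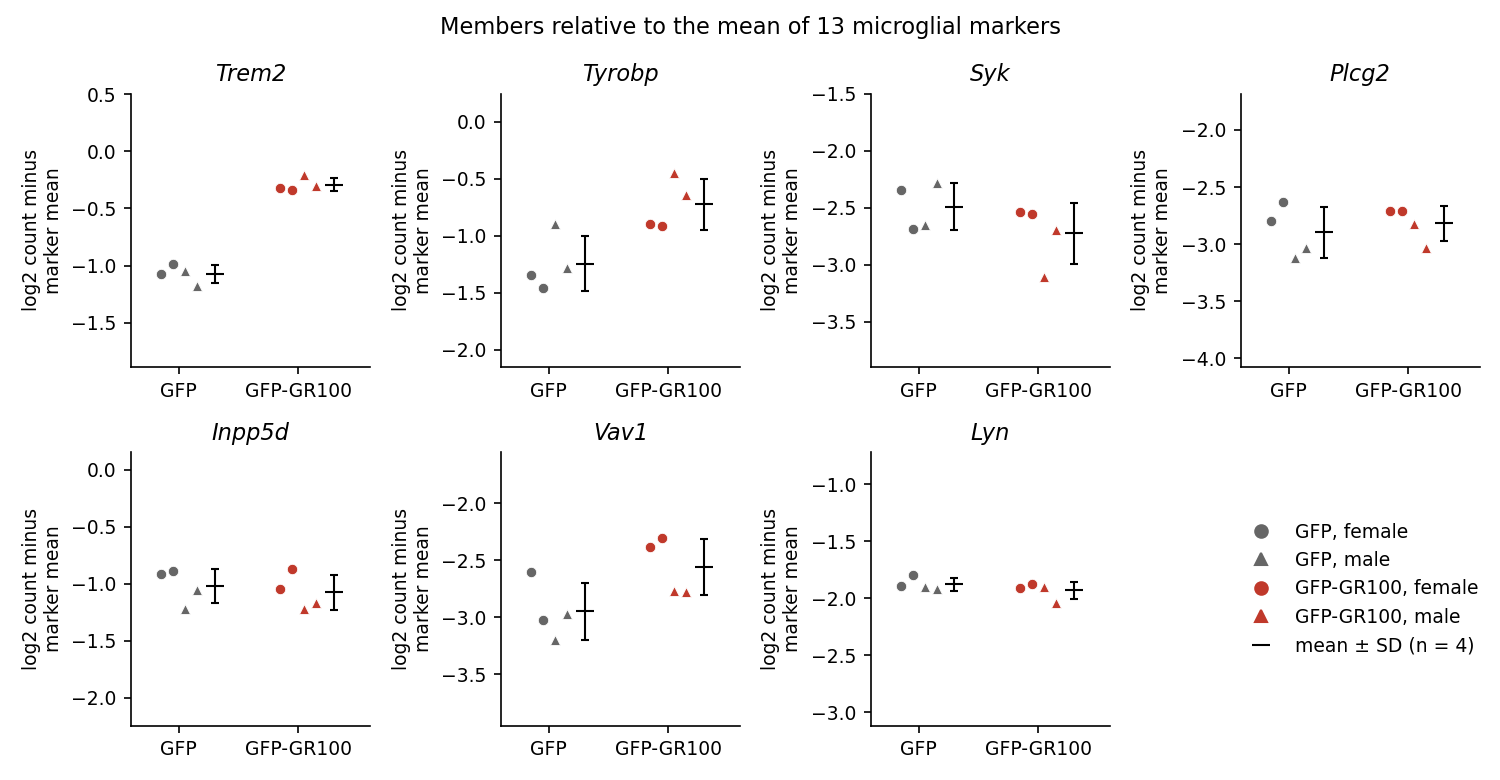
Log2 count of each member minus the mean log2 count of the 13 microglial markers in the same library (vertical axis, every panel spanning the same number of log2 units), with mean and SD (n = 4 per group). The groups are apart for Trem2, from -1.07 ± 0.08 to -0.29 ± 0.06, and overlap for the other 6 members.

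Markers of other cells that can express some members were measured beside them. Of 7 border macrophage markers none passed in edgeR, DESeq2, limma-voom or limma-trend (Ms4a7 alone had an unadjusted edgeR p under 0.05), and their sum ran from 10.8 to 13.2 CPM in GFP and from 11.5 to 16.0 CPM in GFP-GR100 libraries. Of 11 monocyte and neutrophil markers 7 were tested and only Plac8 rose (log2 fold change 1.63, SE 0.27, edgeR adjusted p = 0.00459), the sum being 3.55 to 6.06 and 5.03 to 7.58 CPM. All 7 tested had log2 fold changes above 0, with a median of 0.79, and S100a8 (0.88) had an unadjusted edgeR p of 0.0421 (adjusted p = 0.3). The neutrophil genes Ly6g and Elane were each listed at 0 in 7 of the 8 libraries.

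Of 7 B cell markers 5 were tested and only Cd22, which microglia can also express, rose (2.69, SE 0.21, adjusted p = 2.48e-05), while the summed level overlapped, at 24.8 to 37.6 and 27.1 to 34.0 CPM, and was mostly Ighm. Of the 5, 4 had log2 fold changes above 0, with a median of 0.92, and Cd79b (0.92) and Ms4a1 (1.06) had unadjusted edgeR p-values of 0.0055 and 0.03 that did not pass after adjustment (0.123 and 0.267). The defining gene Pax5 had too few counts to test. Of 8 T and NK cell markers none of the 5 tested passed by these tools (0 at an unadjusted edgeR p under 0.05), with sums of 0.243 to 2.61 and 1.02 to 2.14 CPM. Of 5 astrocyte markers only Gfap rose (1.37, SE 0.15). Of 4 choroid plexus markers only Folr1 passed, and it fell by 2.26 (adjusted p = 0.006), with the list's sum at 120 to 342 CPM in GFP and 27.0 to 80.5 CPM in GFP-GR100 libraries. All 4 had log2 fold changes below 0, with a median of -2.16. Ttr (-2.44), Kcne2 (-2.06) and Clic6 (-0.905) had unadjusted edgeR p-values of 0.00743, 0.00759 and 0.00299. These did not pass after adjustment (0.145, 0.147 and 0.0868). The part of any of these cells in the members' changes was not tested.

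The genes whose profile over the 8 libraries was nearest to that of Trem2 were sought among 12782 genes with a mean of at least 5 CPM, by the root mean square difference of log2 CPM centred on each gene's own mean. They were Tor3a, an interferon-inducible torsin family gene (0.101), Lgals9, which encodes galectin-9 (0.106), Fcgr1, the high-affinity receptor for IgG (0.113), the astrocyte filament gene Gfap (0.119) and Irf8, a transcription factor of microglia and other myeloid cells (0.123). Their log2 fold changes lay between 1.31 and 1.39. Centring over all 8 libraries keeps the difference between groups, so a like log2 fold change by itself brings a profile near. Tyrobp was at position 23 in this order with a distance of 0.230, Vav1 at 71, Plcg2 at 107, Lyn at 130, Inpp5d at 150 and Syk at 329.

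Nearest to Tyrobp were the leukocyte tetraspanin Cd37 (0.115), Aif1 (0.119), C1qa (0.124), Ly86, which encodes the partner protein of a Toll-like receptor homologue (0.143), and C1qc (0.147), with Trem2 at position 21. Aif1, C1qa and C1qc are also in the microglial list. These distances describe the 8 libraries, which also share depth and tissue, and carry no test.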

How the data were processed

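Total RNA of cortex and hippocampus was sequenced from both ends with a stranded kit, 1 library per mouse, per the labels. The authors deposited whole-number counts for each gene, made with TopHat2 version 2.1.0 and build mm10, per the submitters' processing notes, where CASAVA, DESeq2 and R (version 3.4.1) are listed too. The deposited RPKM values were used only for levels and in 1 alternative. Not given in the sources used here are the gene counter, the annotation and the use of strand.

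Members and lists were chosen with earlier results of these data known. Counts were tested with edgeR version 4.0.16 (limma version 3.58.1, R version 4.3.3): filterByExpr (minimum count 10, minimum total 15), TMM scaling, and a robust quasi-likelihood test with sex and group. Log2 fold changes are those of GFP-GR100 relative to GFP. Within-library ratios were tested with two-sided exact permutation tests (SciPy version 1.17.1). Replicate numbers follow accession order and pair no animals. No libraries of a group agreed within sampling noise (lowest chi-square per degree of freedom 16.7). The fit was checked on simulated data. Gene positions are as deposited, and transcript lengths come from GENCODE M21. Named genes were the members, every called gene of the pathway lists with values for up to 4 a list, the compared relatives, the 5 nearest profiles of Trem2 and of Tyrobp, and markers of other cells. A few of these genes and 1 of the 9 ratios between relatives are not reported here, but stay in counts, sums and adjustments. Alternatives covered scaling, filters, limma-voom, DESeq2 (version 1.42.0), log2(RPKM + 0.1) with limma-trend, covariates and left-out libraries.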

Additional observations from a re-analysis of the deposited data

Results flagged for a closer look

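Among 58 groups of 4 values (the members' CPM and the ratios), 7 held a library far from the other 3, where the gap to the nearest value divided by the group's range exceeded Dixon's 95% critical value for 4 samples. For a single group chance gives about 1 in 20. The groups share members and libraries and are not independent, so their number cannot be judged against that rate. GFP 3 was high for Trem2 (18.5 CPM, gap share 0.866) and for Lyn (10.2 CPM, 0.962). GFP-GR100 2 was high for Inpp5d (25.1 CPM, 0.867) and GFP-GR100 3 was low for Syk (5.84 CPM, 0.864). In the ratios, GFP-GR100 3 was high for Plcg2 over Plcg1 (log2 ratio -3.21, 0.892), GFP-GR100 4 was low for Vav1 over Vav2 (-1.39, 0.86), and GFP 1 was high for Syk over Zap70 (2.60, 0.917).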

How the results depend on the processing

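No call of a member other than Lyn changed in the 17 alternatives of the fit, whose log2 fold changes ran from 1.34 to 1.57 for Trem2, 1.03 to 1.39 for Tyrobp, 0.90 to 1.14 for Vav1, 0.67 to 0.85 for Plcg2, 0.55 to 0.69 for Inpp5d and 0.28 to 0.53 for Syk. Lyn ran from 0.54 to 0.72 with 1 library left out and lost its call in 5 of those 8 fits. Between 12 and 22 of the other pathway genes were higher. One, Ubash3b, was lower without GFP 3 and GFP-GR100 4. Over all genes, the counts of higher and lower genes were 724 and 200 by DESeq2, 1168 and 361 without a filter, 656 and 226 with the ribosomal share as a covariate, 378 and 35 without sex, 304 and 19 without GFP-GR100 2, 310 and 19 with GFP-GR100 3 left out, 343 and 37 without GFP 4, 442 and 36 at a mean of at least 1 CPM, 515 and 32 by limma-trend and 579 and 115 without GFP 3 and GFP-GR100 4, against 460 and 68; the other alternatives stayed within 1.5 times of both.

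The difference of the Trem2 effect between sexes was -0.000259 by DESeq2. In females and in males alone (2 against 2, no test), the differences were 0.75 and 0.92 for Trem2 over Lyn, 1.64 and 0.43 for Vav1 over Vav3, and 0.70 and 0.86 for Trem2 over the microglial markers. Within each sex the ribosomal share also differed between the groups. Tyrobp over Hcst gave 0.017 with 1 added to the counts and 0.18 with 5.

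The median marker in place of the mean gave 1.31 for Trem2, 1.04 for Tyrobp, 0.91 for Vav1, 0.60 for Plcg2, 0.47 for Inpp5d, 0.47 for Lyn (each exact permutation adjusted p = 0.0333) and 0.29 for Syk. That value follows whichever marker is of middle abundance. With 10 markers, leaving out the C1q genes (added after seeing the data), Inpp5d and Lyn gave 0.067 each. No paired analysis was possible because replicate numbers were given in accession order.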
